A study of Zea mays with 24 samples.

Results

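The levels of 7 miRNA precursor features were followed across all groups of the study. These were zma-MIR166a, zma-MIR160b, zma-MIR169m, zma-MIR169n, zma-MIR171f, zma-MIR171m and zma-MIR1432. They were matched by name, and they were chosen by their low FPKM levels in these same libraries, with earlier results of the data known, so the levels below are a description of these libraries. They are 7 of 50202 features in the table, of 154 features named as maize miRNA genes, and of 46 features of the 5 families they belong to. RNA was sequenced from seedlings of Zea mays at the stage of 3 leaves, of 2 cultivars that the labels call ST and SS without expanding the names. Each cultivar received a 100 mM salinity solution or water, and young shoots and roots were taken. This gives 8 groups of 3 biological replicates and 24 libraries: ST shoots under salinity, ST shoots under water, SS shoots under salinity, SS shoots under water, ST roots under salinity, ST roots under water, SS roots under salinity and SS roots under water. All groups grew under normal conditions before treatment, and the sources used here do not give how long the salinity lasted or how many plants made up a library.

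MicroRNAs are short RNAs cut from longer hairpin transcripts, and the mature strand guides the silencing of transcripts that pair with it. Sequencing of total RNA, as here, counts reads from the hairpin transcript or from a longer transcript that holds it, and mature miRNAs were not measured. In plants the miR166 family acts on transcripts of class III homeodomain-leucine zipper factors, which set leaf polarity and vascular patterning. The miR160 family acts on auxin response factors, the miR169 family on the NF-YA subunits of a CCAAT-binding factor that has been studied in drought and salt stress, and the miR171 family on GRAS factors that maintain meristems. The miR1432 family is known mainly from rice, where it acts on an acyl-CoA thioesterase transcript and bears on grain filling.

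Levels are given as deposited, in FPKM (fragments per kilobase of feature, scaled to the total of the library). The deposited values could be turned back into whole reads for each of the 7 features, and library totals were 19747198 to 28825226 reads. The 7 features together held 789 of 591374195 reads. Of their 168 library values, 49 were 0 and 135 rested on at most 5 reads. A group was counted as near the detection floor where its 3 libraries together held 3 reads or fewer, a level of 0.174 to 0.542 FPKM depending on feature length and depth. By that measure 6 of the 56 pairs of feature and group were at 0, 15 held 1 to 3 reads, and 35 lay above. A single read was worth 0.163 to 0.618 FPKM, so many differences between libraries below are differences of 1 or 2 reads. Floors and read intervals cover counting error only.

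The label of weak expression was checked against the other miRNA genes. Among the 53 zma-MIR features with any read, the mean level over the 24 libraries ranked zma-MIR166a at place 8 with 3.04 FPKM, zma-MIR169n at 9 with 2.54 and zma-MIR1432 at 11 with 1.58. zma-MIR171m stood at place 14 with 1.13 FPKM, zma-MIR160b at 16 with 0.833, zma-MIR169m at 17 with 0.601 and zma-MIR171f at 22 with 0.298. The features are low in reads, but most other miRNA genes were lower, and 101 of the 154 had no read in any library. The tissue labels could not be checked against root and leaf marker genes, and the target transcripts of these families could not be examined, because the gene table used for names matched 0 of the gene identifiers of the maize gene set.

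Nearly all signal of the 5 families came from these features, which were chosen with earlier results of these libraries known, so this split is a description. The other 39 features of the families together held 14 reads in 24 libraries, and 32 of them held none. The 14 reads were 4 each on zma-MIR169c and zma-MIR169l, 2 on zma-MIR171j, and 1 each on zma-MIR166j, zma-MIR169a, zma-MIR169q and zma-MIR171d. None of the 39 passed the filter on low values, so 0 were tested and 0 could be called in any comparison. Within families nearly all reads lay on 1 feature of 9 for miR166, 1 of 5 for miR160, 2 of 17 for miR169 and 2 of 14 for miR171, while zma-MIR1432 has no other family feature in the table. Reads that fit more than 1 copy of a family could be divided or dropped in counting, and the sources used here do not say how the authors treated them.

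The features are short against the sequenced reads. Recovered lengths were 213 bases for zma-MIR166a, 155 for zma-MIR171f, 121 for zma-MIR160b, 104 for zma-MIR169n, 101 for zma-MIR169m, 89 for zma-MIR1432 and 82 for zma-MIR171m, against reads of 150 bases. Only zma-MIR166a and zma-MIR171f could hold a read of full length. In the RefSeq gene table, used for names and neighbours only, zma-MIR166a lies within the long non-coding RNA gene LOC115029019, zma-MIR160b within LOC109939912, zma-MIR171f within LOC115032967 and zma-MIR171m within LOC118471994. No other gene overlapped zma-MIR169m, zma-MIR169n or zma-MIR1432. Overlap with another gene was also seen for 33 of the 46 other miRNA genes with reads (71.7%), and for 45 of the 100 miRNA genes of that table without reads (45%). Which transcript gave the reads of a feature is not known here. In bulk tissue, fewer cells of a type and less RNA per cell cannot be told apart.

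**Figure D1:**
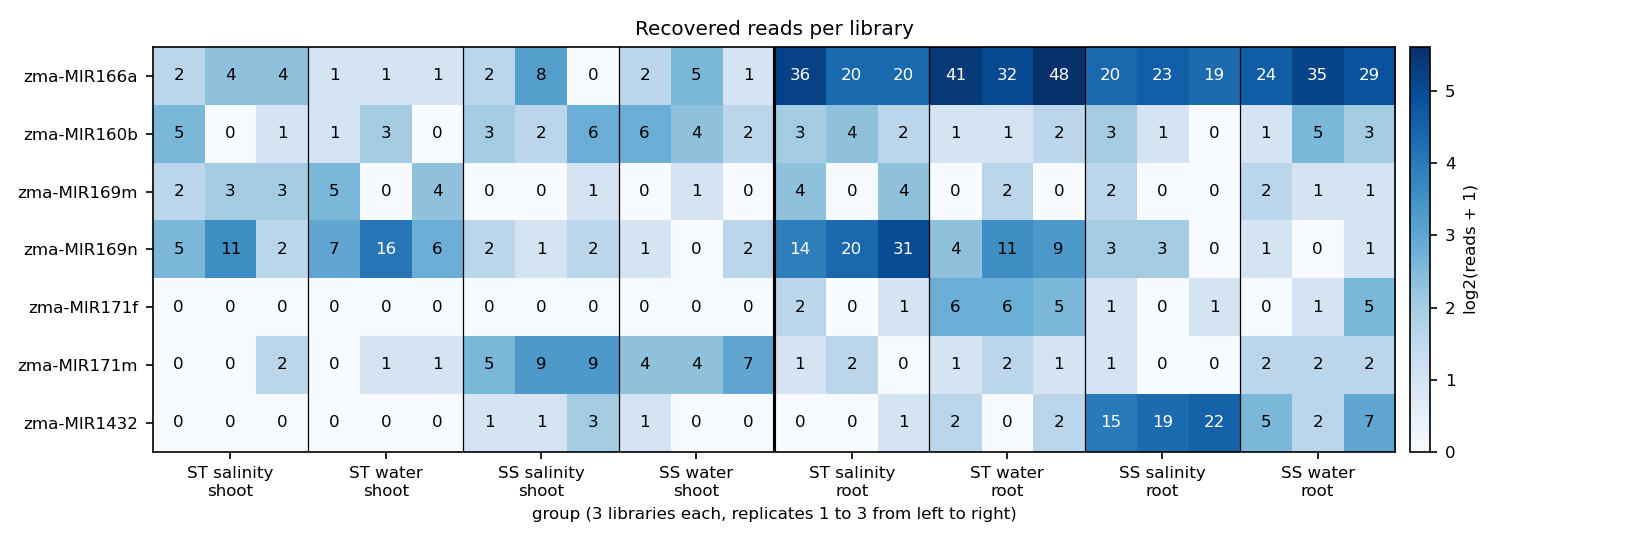
Recovered reads of the 7 features (rows) in each of the 24 libraries (columns, 3 per group, shoots left of the thick line and roots right of it); colour shows log2(reads + 1). The highest cell is 48 reads of zma-MIR166a in 1 ST root library under water, and zma-MIR171f is 0 in all 12 shoot libraries.

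zma-MIR166a was the most abundant of the features and was found mainly in roots, in both cultivars. ST shoots stood at 0.428, 0.777 and 0.826 FPKM under salinity and 0.176, 0.181 and 0.192 FPKM under water. SS shoots stood at 0.326, 1.41 and 0 FPKM under salinity and 0.378, 0.87 and 0.188 FPKM under water. ST shoots under water held 1 read in each library and were at the floor. ST roots stood at 6.52, 4.55 and 4.16 FPKM under salinity, against 7.75, 5.61 and 8.31 FPKM under water. SS roots stood at 4.22, 4.15 and 3.69 FPKM under salinity, against 5.71, 6.86 and 5.71 FPKM under water. All 12 shoot libraries lay below all 12 root libraries. Group means were 5.08 ± 1.27 FPKM under salinity and 7.22 ± 1.42 FPKM under water in ST roots, and 4.02 ± 0.29 FPKM under salinity and 6.09 ± 0.666 FPKM under water in SS roots (SD, n = 3 each). Ranked by mean, the 4 root groups each overlapped the next, and so did the 4 shoot groups, which had means of 0.183 to 0.677 FPKM.

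zma-MIR160b was spread thinly over every group, on 4 to 12 reads per group, with no library above 6 reads. Shoots stood at 1.89, 0 and 0.364 FPKM in ST under salinity and 0.311, 0.958 and 0 FPKM in ST under water. SS shoots stood at 0.86, 0.621 and 1.95 FPKM under salinity and 1.99, 1.22 and 0.663 FPKM under water. ST roots stood at 0.956, 1.6 and 0.732 FPKM under salinity, against 0.333, 0.309 and 0.609 FPKM under water. In ST roots every library under salinity was above every library under water, with the closest values 0.732 and 0.609 FPKM. SS roots stood at 1.11, 0.318 and 0 FPKM under salinity and 0.419, 1.73 and 1.04 FPKM under water, and these ranges overlapped. In order of group means, which ran between 0.417 FPKM in ST roots under water and 1.29 FPKM in SS shoots under water, every group overlapped the next.

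The miR169 features, zma-MIR169n and zma-MIR169m, were higher in ST than in SS in several groups. ST shoots held 2.19, 4.38 and 0.846 FPKM of zma-MIR169n under salinity and 2.53, 5.94 and 2.35 FPKM under water. SS shoots held 0.667, 0.361 and 0.756 FPKM under salinity and 0.387, 0 and 0.772 FPKM under water. The lowest ST shoot library, on 2 reads, was above the highest SS shoot library, also on 2 reads. ST roots held 5.19, 9.32 and 13.2 FPKM under salinity and 1.55, 3.95 and 3.19 FPKM under water. SS roots held 1.3, 1.11 and 0 FPKM under salinity and 0.487, 0 and 0.403 FPKM under water. All 6 ST root libraries lay above all 6 SS root libraries. The group means were 2.47 ± 1.78 FPKM under salinity and 3.61 ± 2.02 FPKM under water in ST shoots, 9.23 ± 4 FPKM under salinity and 2.9 ± 1.23 FPKM under water in ST roots, and 0.297 to 0.802 FPKM in the 4 SS groups. Ranked by mean, each group overlapped the next, and SS shoots and SS roots under water were near the floor, with 3 and 2 reads.

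zma-MIR169m had 35 reads in all, and 4 of its 8 groups were near the floor. ST shoots held 0.904, 1.23 and 1.31 FPKM under salinity and 1.86, 0 and 1.62 FPKM under water. SS shoots held 0, 0 and 0.389 FPKM under salinity and 0, 0.367 and 0 FPKM under water. The 6 SS shoot libraries together held 2 reads. ST roots held 1.53, 0 and 1.75 FPKM under salinity and 0, 0.74 and 0 FPKM under water. SS roots held 0.89, 0 and 0 FPKM under salinity and 1, 0.413 and 0.415 FPKM under water. Libraries at 0 stood beside libraries of 4 or 5 reads within 2 of the ST groups, and in order of means every group overlapped the next.

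The miR171 features differed from each other in where they were found. zma-MIR171f was at 0 in all 12 shoot libraries, which allows up to 0.239 to 0.281 FPKM per shoot group at 3 reads over the group. In ST roots it stood at 0.498, 0 and 0.286 FPKM under salinity, against 1.56, 1.45 and 1.19 FPKM under water. SS roots held 0.29, 0 and 0.267 FPKM under salinity and 0, 0.269 and 1.35 FPKM under water, where 5 of the 6 reads under water came from replicate 3. ST roots under water were above 1 FPKM in every library, and both root groups under salinity were near the floor. Means were 0.261 ± 0.25 FPKM under salinity and 1.4 ± 0.19 FPKM under water in ST roots, and 0.185 ± 0.161 FPKM under salinity and 0.54 ± 0.716 FPKM under water in SS roots, and ranked by mean each root group overlapped the next.

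zma-MIR171m was found mainly in SS shoots. ST shoots held 0, 0 and 1.07 FPKM under salinity and 0, 0.471 and 0.498 FPKM under water, 2 reads in each group. SS shoots held 2.12, 4.12 and 4.31 FPKM under salinity and 1.96, 1.81 and 3.43 FPKM under water. All 6 ST shoot libraries lay below all 6 SS shoot libraries. ST roots held 0.47, 1.18 and 0 FPKM under salinity and 0.491, 0.911 and 0.449 FPKM under water. SS roots held 0.548, 0 and 0 FPKM under salinity, against 1.24, 1.02 and 1.02 FPKM under water, where each library held 2 reads. Ranked by mean, the SS shoot groups (3.52 ± 1.22 FPKM under salinity and 2.4 ± 0.893 FPKM under water) overlapped, SS roots under water (1.09 ± 0.124) came next and overlapped neither neighbour in that order, and the other 5 groups, at 0.183 to 0.617 FPKM, each overlapped the next.

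zma-MIR1432 was found mainly in SS roots. All 6 ST shoot libraries were at 0, which allows up to 0.49 FPKM under salinity and 0.438 FPKM under water. SS shoots held 0.39, 0.422 and 1.32 FPKM under salinity and 0.452, 0 and 0 FPKM under water. ST roots held 0, 0 and 0.497 FPKM under salinity, on 1 read, and 0.905, 0 and 0.828 FPKM under water, on 4 reads. SS roots stood at 7.57, 8.2 and 10.2 FPKM under salinity, against 2.84, 0.938 and 3.3 FPKM under water. Ranked by mean, SS roots under salinity (8.66 ± 1.38 FPKM) stood clear of SS roots under water (2.36 ± 1.25 FPKM), and each later group overlapped the one before it or shared values of 0 with it.

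**Figure D2:**
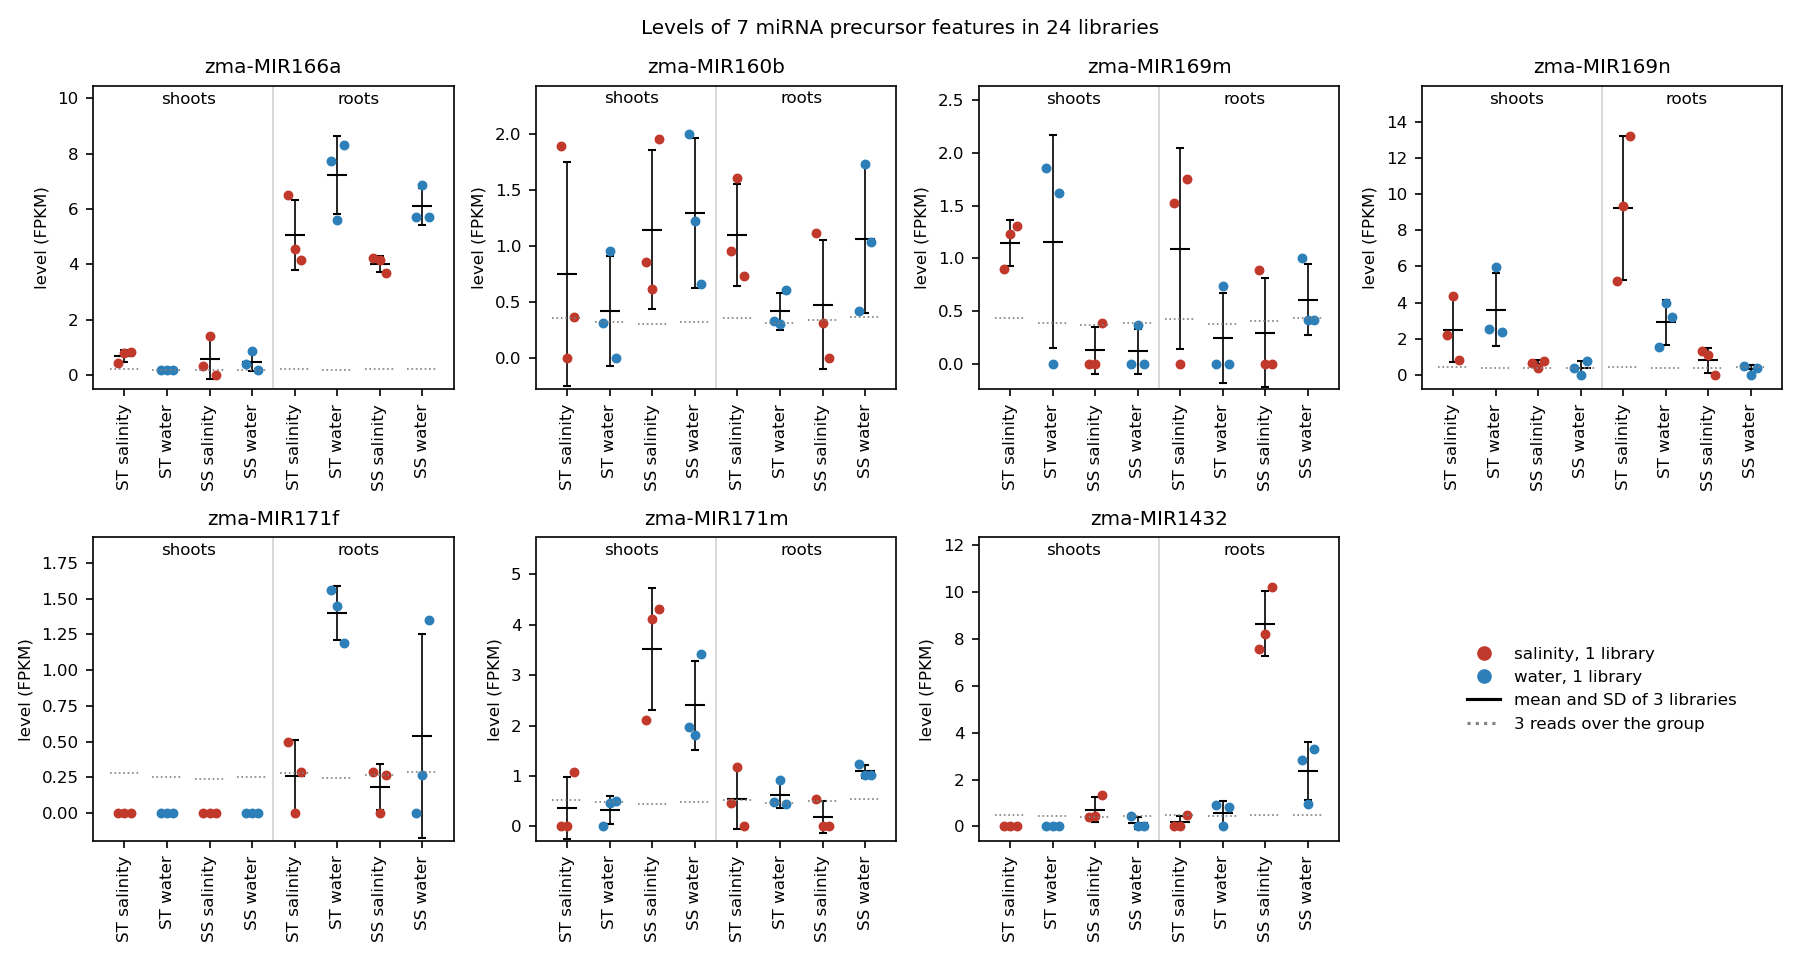
Level of each feature (FPKM, linear axis) in every library, shoots left of the grey line and roots right of it, with salinity in red and water in blue; black marks are mean and SD of 3 libraries and dotted lines show the level that 3 reads over a group would give. zma-MIR166a lies at 3.69 to 8.31 FPKM in roots and at most 1.41 FPKM in shoots, and zma-MIR1432 passes 7 FPKM only in SS roots under salinity.

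Differences were tested with limma on log2(FPKM + 1) over all features with at least 1 FPKM in at least 3 libraries of the fit, and a call is a Benjamini-Hochberg adjusted p under 0.05. A difference given below is one of log2(FPKM + 1), which is smaller than the true log2 change where levels are low. All 7 features entered the root fit and the fit of both tissues. zma-MIR166a, zma-MIR171f and zma-MIR1432 did not enter the shoot fit, so no shoot test of them was made. Some features passed the filter only through the group where they were high and therefore had to differ. In the shoot fit, zma-MIR169m and zma-MIR169n reached 1 FPKM only in ST libraries, and zma-MIR171m in 1 ST library and all 6 SS libraries. In the root fit, zma-MIR169n did so in all ST libraries, in 2 SS libraries under salinity and in 0 SS libraries under water. There zma-MIR1432 did so only in SS libraries, and zma-MIR171f only in 3 ST libraries and 1 SS library under water. zma-MIR171m did so only in 3 SS libraries under water and 1 ST library under salinity. In the fit of both tissues, zma-MIR171f again passed only through those 4 root libraries, and zma-MIR1432 through 1 SS shoot library and 5 SS root libraries. There zma-MIR166a passed through every root library and 1 SS shoot library under salinity. zma-MIR171m passed through all 6 SS shoot libraries, 3 SS root libraries under water, and 1 ST shoot and 1 ST root library under salinity. The calls of these features between the groups named here describe the libraries and add no support. Calls between 2 groups are given with an exact 95% interval of the ratio of reads per library total (the read interval), and with the ratio where both groups hold reads.

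Between tissues, zma-MIR166a was lower in shoots than in roots in both cultivars and both treatments. In ST it was called under salinity on 10 reads in shoots and 76 in roots, and under water on 3 reads in shoots and 121 in roots. In SS it was called under salinity on 10 reads in shoots and 62 in roots, and under water on 8 and 88 reads. The log2 differences in limma were -1.85 ± 0.23 (SE, adjusted p = 1.25e-07) in ST under salinity, -2.78 ± 0.23 (adjusted p = 1.56e-10) in ST under water, -1.77 ± 0.23 (adjusted p = 2.75e-07) in SS under salinity and -2.28 ± 0.23 (adjusted p = 4.56e-09) in SS under water. The corresponding read ratios were 0.132 (interval 0.0610 to 0.257), 0.0254 (0.00516 to 0.0759), 0.145 (0.0661 to 0.284) and 0.0800 (0.0335 to 0.165). All 4 calls were kept in each of 31 refits. The feature passed the filter almost only through root libraries, so these calls describe the libraries and add no support.

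Other tissue calls were made for zma-MIR1432, for the 2 miR171 features in opposite directions, and for zma-MIR169n. zma-MIR1432 was lower in SS shoots than in SS roots, on 5 and 56 reads under salinity (log2 difference -2.53 ± 0.27 SE, limma adjusted p = 1.78e-08, read ratio 0.0800 with interval 0.0250 to 0.198). Under water it was lower on 1 and 14 reads (log2 difference -1.49 ± 0.27 SE, limma adjusted p = 3.16e-05, read ratio 0.0629 with interval 0.00149 to 0.413). zma-MIR171m was higher in SS shoots than in SS roots under salinity, on 23 reads and 1 read (log2 difference 1.93 ± 0.30 SE, limma adjusted p = 3.71e-06, read ratio 20.6 with interval 3.35 to 849). It reached 1 FPKM in all 3 of those shoot libraries and in 0 of those root libraries, so this call adds no support. Under water its difference was 0.67 ± 0.30 on 15 and 6 reads (limma adjusted p = 0.0417, range over 30 refits 0.00743 to 0.335), and the read ratio of 2.20 had an interval of 0.807 to 6.92, which held 1. That call was lost without SS root replicate 1 (adjusted p = 0.0569), 2 (0.0863) or 3 (0.0860), without SS shoot replicate 3 (0.194), all under water, and with a pseudocount of 0.1 (0.335), no filter (0.0647) and voom on the recovered reads (0.131). zma-MIR171f, at 0 in shoots, was lower in ST shoots than in ST roots under water (0 and 17 reads, read interval 0 to 0.248, limma adjusted p = 3.93e-06). In SS under water it was lower in shoots on 0 and 6 reads, with groups that shared a value of 0 (read interval 0 to 0.747, limma adjusted p = 0.0174), a call lost without SS water root replicate 3 (adjusted p = 0.244, the highest of 29 refits that began at 0.000436).

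zma-MIR169n was lower in ST shoots than in ST roots under salinity, on 18 and 65 reads (log2 difference -1.61 ± 0.39 SE, limma adjusted p = 0.000664, read ratio 0.278 with interval 0.155 to 0.475). That root level holds an increase known when the features were chosen, so this call adds no support. Under water zma-MIR169n held 29 reads in ST shoots and 24 in ST roots. That difference of 0.21 ± 0.39 did not pass (limma adjusted p = 0.632, read ratio 1.24 with interval 0.695 to 2.22). zma-MIR1432 in ST under water, on 0 reads in shoots and 4 in roots, had a read interval of 0 to 1.55, which held 1. Its limma adjusted p of 0.0449 ranged over 0.00442 to 0.183 in 30 refits, and the call was lost with no filter (0.0678), under median-of-ratios scaling (0.0727) and without any 1 of 9 libraries. Those were ST water root replicates 1 (0.183) and 3 (0.161), the 3 ST shoot libraries under water (0.0794 to 0.0798), the 3 ST shoot libraries under salinity (0.0508 to 0.0510) and SS salinity root replicate 2 (0.0506). In all, 2 of the 7 features were called between tissues in ST under salinity, 3 in ST under water, 3 in SS under salinity and 4 in SS under water. Over all 29127 features tested the shares called were 84.8% in ST under salinity, 85.1% in ST under water, 80% in SS under salinity and 82.2% in SS under water, above the share of the features in each case.

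The tissue values depend on scaling. With the deposited totals the median log2 difference of all features, shoot minus root, was -0.54 in ST under salinity, -0.52 in ST under water, -0.28 in SS under salinity and -0.38 in SS under water. Median-of-ratios scaling moved these medians up by 0.528, 0.506, 0.276 and 0.365. Under that scaling, in the same order, zma-MIR166a stood at -1.41, -2.47, -1.52 and -2.00, zma-MIR171m in SS at 2.04 under salinity and 0.97 under water, and zma-MIR169n in ST under salinity at -1.06. The directions of the 12 tissue calls were the same under both scalings. zma-MIR169m in ST under water, at 0.70 with deposited totals (limma adjusted p = 0.0873), was 0.91 under median-of-ratios scaling (adjusted p = 0.0321, range over 30 refits 0.00407 to 0.339).

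Between cultivars, zma-MIR169n was higher in ST than in SS in all 4 comparisons. In roots it was called under salinity on 65 reads in ST and 6 in SS (log2 difference 2.52 ± 0.36 SE, limma adjusted p = 3.46e-05, read ratio 11.4 with interval 4.94 to 32.1). Under water the reads were 24 in ST and 2 in SS (1.55 ± 0.36 SE, limma adjusted p = 0.00180, read ratio 10.3 with interval 2.56 to 89.9). Both root calls were kept in each of 19 refits. In roots zma-MIR169n reached 1 FPKM in all 3 libraries of each ST group, in 2 SS libraries under salinity and in 0 SS libraries under water. These root calls therefore describe the libraries and add no support. In shoots the reads were 18 in ST and 5 in SS under salinity (0.997 ± 0.352 SE, limma adjusted p = 0.0189, read ratio 4.23 with interval 1.51 to 14.6). That call was lost without SS salinity shoot replicate 2 (adjusted p = 0.0616), without ST salinity shoot replicate 2 (0.104) and with a pseudocount of 0.1 (0.0514), in a range of 0.00181 to 0.104. Under water the shoot reads were 29 in ST and 3 in SS (1.69 ± 0.35 SE, limma adjusted p = 0.000607, read ratio 9.64 with interval 2.99 to 49.4).

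zma-MIR169m was also higher in ST shoots, on far fewer reads. In the shoot fit zma-MIR169m and zma-MIR169n reached 1 FPKM only in ST libraries, so their shoot calls describe the libraries and add no support. The values below are for zma-MIR169m. Under salinity it had 8 reads in ST and 1 in SS (0.94 ± 0.31 SE, limma adjusted p = 0.0131, read ratio 9.40 with interval 1.26 to 417), and the call was kept in each of 18 refits. Under water it had 9 reads in ST and 1 in SS with overlapping groups (0.82 ± 0.31 SE, limma adjusted p = 0.0267, read ratio 8.97 with interval 1.24 to 393). This call was lost in 8 of 18 refits, with adjusted p-values of 1.91e-05 to 0.131. They included leaving out ST water shoot replicate 1 (0.131) or 3 (0.114) and SS water shoot replicate 1 (0.0757) or 3 (0.0770). The other losses were with a pseudocount of 0.1 (0.0851), no filter (0.0512), voom on the recovered reads (0.0715) and all libraries in 1 fit (0.0551).

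zma-MIR171m and zma-MIR1432 ran the other way. They passed the filters of these fits mainly or only through SS libraries, so the calls describe the libraries and add no support. zma-MIR171m was lower in ST shoots, on 2 reads in ST and 23 in SS under salinity (-1.78 ± 0.29 SE, limma adjusted p = 8.10e-05, read ratio 0.102 with interval 0.0117 to 0.414). Under water it was lower on 2 and 15 reads (-1.35 ± 0.29 SE, limma adjusted p = 0.000845, read ratio 0.133 with interval 0.0148 to 0.572). zma-MIR1432 was lower in ST roots, on 1 read in ST and 56 in SS under salinity (-3.07 ± 0.30 SE, limma adjusted p = 1.14e-06, read ratio 0.0187 with interval 0.000466 to 0.109). Under water it was lower on 4 and 14 reads (-1.07 ± 0.30 SE, limma adjusted p = 0.00711, read ratio 0.245 with interval 0.0588 to 0.781). In shoots, where it was not tested, it had 0 reads in ST and 5 in SS under salinity, with a read interval of 0 to 1.28 that held 1, and the limma adjusted p was 0.00486 with no filter and 0.0193 with all libraries in 1 fit.

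zma-MIR171f was higher in ST roots than in SS roots under water, on 17 and 6 reads (0.73 ± 0.25 SE, limma adjusted p = 0.0208). The groups overlapped, and the read ratio of 2.43 had an interval of 0.915 to 7.53. The call was lost without SS water root replicate 1 (adjusted p = 0.103) or 2 (0.0708), without ST water root replicate 1 (0.0574) or 2 (0.0502) and with a pseudocount of 0.1 (0.0656), in a range of 0.000216 to 0.103. The cultivar calls came to 2 of the 7 features in roots under salinity, where 73.3% of 27109 features were called, and 3 of 7 under water, where 70.7% were. In shoots 3 of the 4 features tested were called under each treatment, against 80.1% of 24810 features under salinity and 80.1% under water. zma-MIR166a, zma-MIR160b, zma-MIR169m and zma-MIR171m were called in neither root comparison. In shoots under salinity, median-of-ratios scaling moved the median of all features by 0.195, and the 3 calls there then stood at 1.01 for zma-MIR169m, 1.11 for zma-MIR169n and -1.67 for zma-MIR171m.

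**Figure D3:**
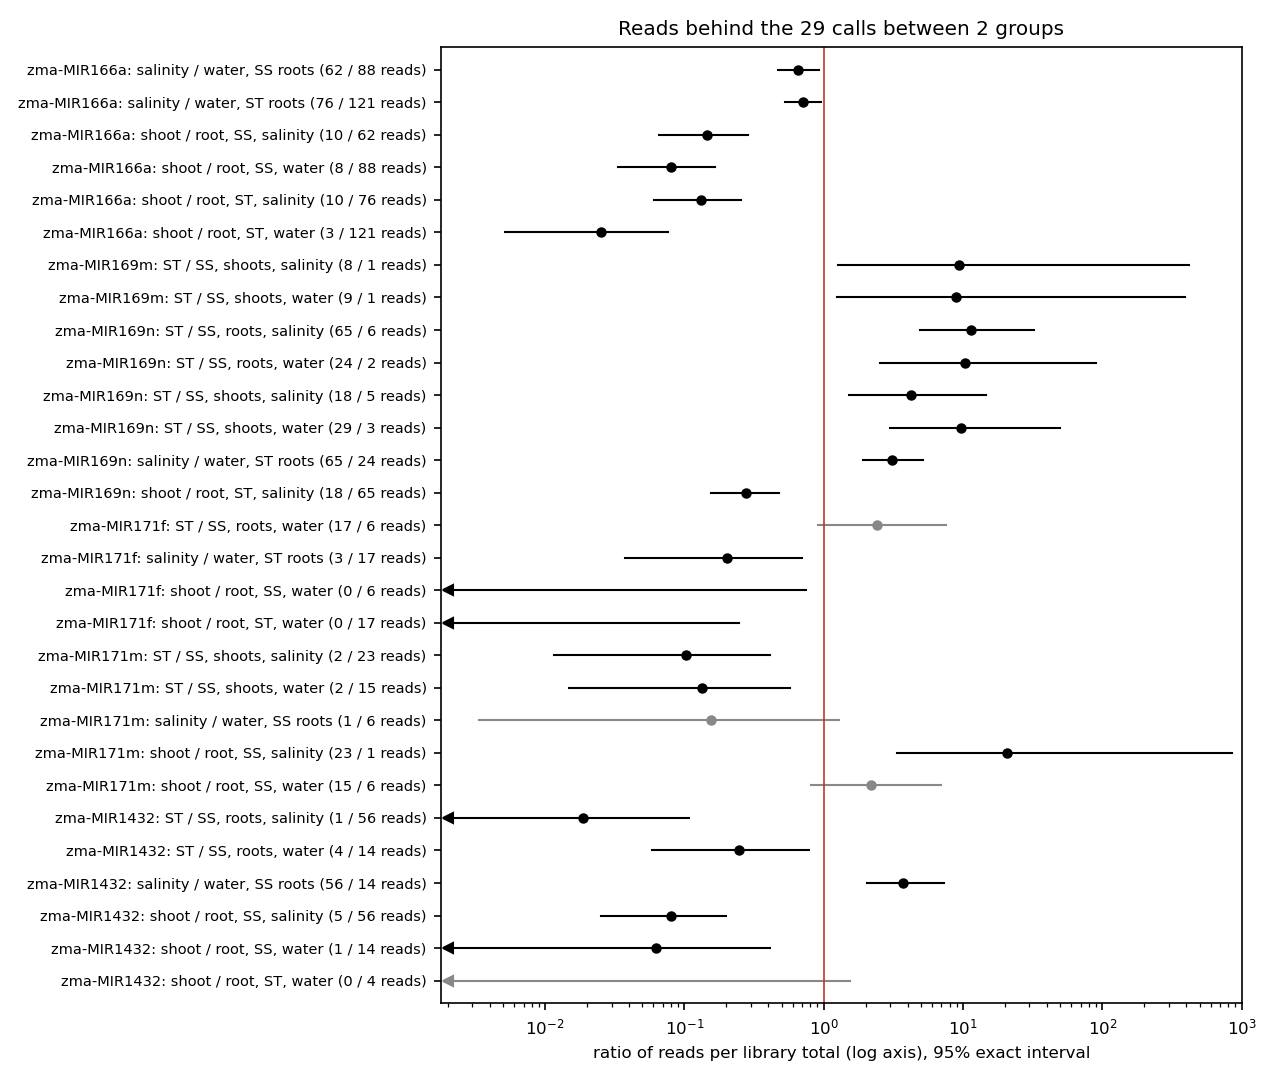
Reads behind the 29 calls between 2 groups, as the ratio of reads per library total with exact 95% intervals (log axis; group named first over group named second; arrows run off the axis, and a row with 0 reads has no point). The 4 grey intervals hold 1, and the 25 black ones do not. Only rows called by limma are shown, and the intervals cover counting error only, so they are no separate test.

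Calls between salinity and water were made in roots, in different directions for different features. zma-MIR166a fell in both cultivars. In ST roots it held 76 reads under salinity and 121 under water (log2 difference -0.44 ± 0.15 SE, limma adjusted p = 0.0273, read ratio 0.715 with interval 0.530 to 0.960), with overlapping groups. In SS roots it held 62 reads under salinity and 88 under water (-0.50 ± 0.15 SE, limma adjusted p = 0.0182, read ratio 0.657 with interval 0.467 to 0.919), without overlap. The ST call was lost in 7 of 19 refits, with adjusted p-values of 0.00366 to 0.119. They included leaving out ST water root replicate 1 (0.0831) or 3 (0.109) and ST salinity root replicate 2 (0.0874) or 3 (0.111), voom on the recovered reads (0.105), all libraries in 1 fit (0.119) and no filter (0.0502). The SS call was lost in 4 of 19, in a range of 0.0067 to 0.0895, which were leaving out SS water root replicate 2 (0.0722) or SS salinity root replicate 3 (0.0649), voom (0.0841) and all libraries in 1 fit (0.0895).

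Each miR171 feature was called as lower under salinity in the roots of 1 cultivar. Both passed the root filter mainly or only through libraries under water, so these calls describe the libraries and add no support. zma-MIR171f fell in ST roots, to 3 reads under salinity against 17 under water (-0.94 ± 0.25 SE, limma adjusted p = 0.00882, read ratio 0.201 with interval 0.0377 to 0.695), and the call was kept in each of 18 refits. In SS roots it held 2 reads under salinity and 6 under water, and its difference of -0.29 ± 0.25 did not pass (limma adjusted p = 0.413). zma-MIR171m fell in SS roots, to 1 read under salinity against 6 under water (-0.85 ± 0.24 SE, limma adjusted p = 0.0151). Its read ratio of 0.155 had an interval of 0.00338 to 1.28, which held 1, and the call was lost without SS salinity root replicate 2 (adjusted p = 0.0591) or 3 (0.0598), in a range of 0.00431 to 0.0598. In ST roots it held 3 reads under salinity and 4 under water (-0.12 ± 0.24, limma adjusted p = 0.731). Whether these responses differ between the cultivars was tested directly and did not pass, with adjusted p = 0.166 for zma-MIR171f and 0.110 for zma-MIR171m in limma.

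zma-MIR169n rose in ST roots and zma-MIR1432 rose in SS roots. Both increases were known from these libraries when the features were chosen, so the values describe them and add no support. zma-MIR169n held 65 reads under salinity and 24 under water in ST roots (1.37 ± 0.36 SE, limma adjusted p = 0.00757, read ratio 3.08 with interval 1.90 to 5.15). zma-MIR1432 held 56 reads under salinity and 14 under water in SS roots (1.60 ± 0.30 SE, limma adjusted p = 0.00124, read ratio 3.73 with interval 2.05 to 7.25). Each was called in 18 of 19 refits and lost with a pseudocount of 0.1, at an adjusted p of 0.179 for zma-MIR169n (range 0.00299 to 0.179) and 0.0992 for zma-MIR1432 (range 7.12e-05 to 0.0992). The read intervals of both ratios did not hold 1.

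The salinity calls in roots were 3 of 7 features in ST, 1 higher and 2 lower, where 45.8% of 27109 features were called. In SS they were also 3 of 7, 1 higher and 2 lower, where 38.7% were called. The median difference of the 7 features was -0.12 in ST roots, against 0.03 for all features tested, and -0.36 in SS roots, against 0.00 for all features. In shoots limma called 0 of the 4 features tested in ST, against 41.7% of 24810 features, and 0 of 4 in SS, against 56.6%. None of the 4 had an unadjusted p under 0.05 there (the lowest was 0.216 in ST and 0.196 in SS), and voom on the recovered reads also called 0 in each. These 4 features held 1 to 29 reads per shoot group. zma-MIR1432, not tested in shoots, had 5 reads in SS shoots under salinity and 1 under water, and its limma adjusted p was 0.0358 with no filter and 0.0977 with all libraries in 1 fit.

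**Figure D4:**
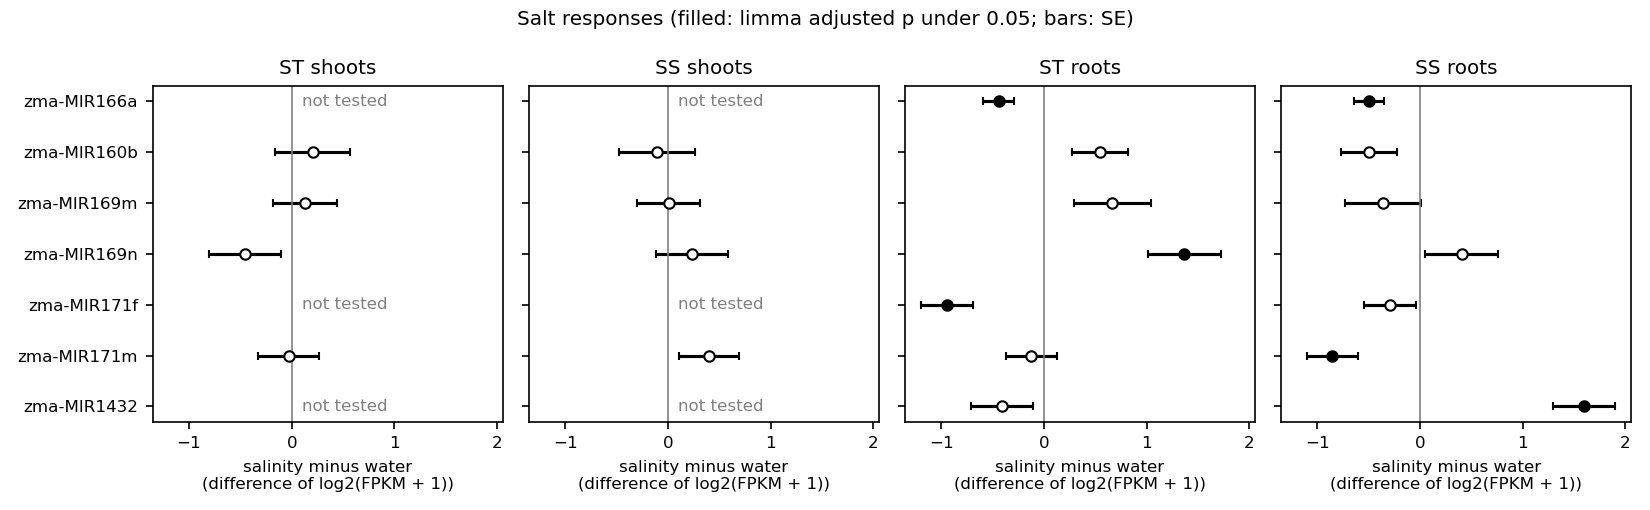
Salt response of each feature, salinity minus water as a difference of log2(FPKM + 1), in ST shoots, SS shoots, ST roots and SS roots; bars are SE and filled points have a limma adjusted p under 0.05. The 6 filled points all lie in roots, with zma-MIR166a below 0 in both cultivars, zma-MIR169n above 0 in ST and zma-MIR1432 above 0 in SS.

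The difference between the cultivars' root responses was tested as ST response minus SS response. limma called 2 of 7 features, zma-MIR160b and zma-MIR1432, against 41.7% of all features. For zma-MIR1432 the root response was -0.41 ± 0.30 in ST (limma adjusted p = 0.305) and 1.60 ± 0.30 in SS, a difference of -2.00 ± 0.43 (SE, limma adjusted p = 0.00265). This difference rests on the SS increase that was known beforehand, and it was kept in 18 of 19 refits and lost with a pseudocount of 0.1 (adjusted p = 0.0536, range 0.000251 to 0.0536). For zma-MIR160b the root response was 0.55 ± 0.27 in ST, on 9 reads under salinity and 4 under water, and -0.50 ± 0.27 in SS, on 4 and 9 reads, and neither passed alone (limma adjusted p = 0.121 and 0.174). Their difference of 1.05 ± 0.39 had a limma adjusted p of 0.0450. zma-MIR160b passed the root filter mainly through the groups that raise this difference, so the call adds no support.

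The zma-MIR160b call held in only 5 of 18 refits, with adjusted p-values of 0.00861 to 0.108. It was lost without SS water root replicate 2 (0.108) or 3 (0.0796), SS salinity root replicate 2 (0.0858) or 3 (0.107), ST water root replicate 1 (0.0780) or 2 (0.0866), and ST salinity root replicate 1 (0.0643) or 2 (0.103). It was also lost with a pseudocount of 0.1 (0.0613), no filter (0.0771), median-of-ratios scaling (0.0525), all libraries in 1 fit (0.0989) and the replicate number as a block (0.0559). The response of zma-MIR169n was 1.37 in ST roots. In SS roots it was 0.40 ± 0.36, on 6 reads under salinity and 2 under water, and was not called (limma adjusted p = 0.418). The difference between these responses did not pass (0.96 ± 0.51, limma adjusted p = 0.149). So the response in ST is not shown to differ from that in SS. The responses of zma-MIR166a, -0.44 in ST and -0.50 in SS, gave a difference of 0.06 ± 0.21 (limma adjusted p = 0.853). In shoots limma called 0 of the 4 features tested, against 51.3% of all features, with 0 at an unadjusted p under 0.05 (lowest 0.189) and 0 by voom.

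Likeness to other miRNA genes was described for the 3 features with at least 10 reads in some library, by Pearson's coefficient of log2(FPKM + 1) over the 24 libraries among 22 candidate zma-MIR features. These points share libraries and depth and fall into tissue and cultivar groups. zma-MIR1432 was most like zma-MIR164b (0.81), which had 0 reads in all 12 ST libraries. In SS roots zma-MIR164b averaged 19.1 ± 2.17 FPKM under salinity, against 31.5 ± 3.23 FPKM under water (SD, n = 3 each), so its level was lower under salinity where that of zma-MIR1432 was higher. zma-MIR169n was most like zma-MIR168b (0.68), which stood at 66.2 ± 4.87 FPKM in ST roots under salinity and 63.8 ± 3.12 under water, and at 20.7 ± 2.73 FPKM under salinity and 25 ± 1.67 FPKM under water in SS roots. zma-MIR166a was most like zma-MIR171f (0.70), which holds 28 reads in all and is at 0 in shoots.

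Of the 31 calls made on the features, 18 were kept in every refit. Leaving out 1 library ended 10, and another setting ended 11. The 18 kept calls are among those said above to describe the libraries, so being kept adds no support. Over all features tested, 38.7% to 85.1% were called in a comparison. How many of those calls would be kept in the refits was not computed. An exact permutation test of 3 against 3 libraries cannot go below 0.1, even where the groups do not overlap.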

How the data were processed

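Total RNA of 24 libraries was sequenced as paired ends of 150 bases, per the labels' protocols. The authors deposited a table for each library with FPKM values, which divide by the length of the feature and the total of the library. Per the submitters' processing notes, which give neither versions nor roles, the processing involved TopHat2, Cufflinks, Cuffdiff and the build B73 RefGen_v3. Gene identifiers in the tables belong to a later gene set, so no coordinates are given. The sources used here do not give how reads that fit several features were counted.

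Whole reads were recovered by searching for feature lengths and library totals under which each value became a whole number within 0.002 reads. All 40811 features above 0 in some library (100%) were solved, and the lengths of all 53 miRNA genes with a value equalled those in the RefSeq table (assembly NAM-5.0, used for names, lengths and neighbours). They are called reads, although they may be fragments. The search was tested on simulated data.

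Because FPKM are not counts, limma 3.58.1 (R 4.3.3, moderated variances with a mean trend) was run on log2(FPKM + 1), with Benjamini-Hochberg adjustment over all features that reached 1 FPKM in 3 or more of the fitted libraries. A model of 12 libraries per tissue gave the contrasts inside that tissue, and a model of all 24 gave those of shoot against root. Salinity and water libraries of the same replicate number, cultivar and tissue did not deviate together: the correlation of their deviations was -0.0949 to 0.0573. No pairing was used in the main fits, and whether such libraries were paired by design is not known here. Shoot and root libraries of the same number were not compared, so a pairing of tissues was not tested. Replicates differed by more than sampling noise (chi-square per degree of freedom 1.92 to 8.32). Read intervals are exact 95% binomial intervals of the share of reads in 1 of 2 groups. Alternatives were a pseudocount of 0.1, no filter or a filter of 5 FPKM, median-of-ratios scaling, voom on the recovered reads, other libraries in the fit, a replicate block and leaving out each library. All 7 features are named, with the difference and its test for each call, and the 1 miRNA gene most alike is named by the highest coefficient. The features, lists and tests were chosen with earlier results of these data known. Target genes and tissue markers listed by symbol had 0 matches. Python 3.11.15, numpy 2.4.6, pandas 2.3.3, scipy 1.17.1 and matplotlib 3.10.9 were used.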

Additional observations from a re-analysis of the deposited data

Results flagged for a closer look

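For 2 of the features the root response to salinity differed between the cultivars by the test of that difference in limma, which called 41.7% of all features, so the flags are not particular to these features. For zma-MIR1432 the ST response minus the SS response was -2.00 (SE 0.43, adjusted p = 0.00265), with ST libraries on 0 to 2 reads and SS libraries on 2 to 22. That value rests on the SS increase known when the features were chosen, and only SS root libraries reached 1 FPKM, so it is a description and adds no support. For zma-MIR160b it was 1.05 (SE 0.39, adjusted p = 0.0450), on 0 to 5 reads per library, and it was called in 5 of 18 refits. In roots zma-MIR160b reached 1 FPKM in 2 SS libraries under water, 1 ST and 1 SS library under salinity and 0 ST libraries under water. It thus passed the filter mainly through the groups that raise this difference, so this value is a description too.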

How the results depend on the processing

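The 6 calls for salinity against water (4 to 6 under other settings, 4 to 7 leaving out 1 library) stayed within 1.5 times their number. So did the 12 calls for shoot against root (11 to 14 leaving out 1 library). These were 8 with a filter of 5 FPKM and 10 with no filter. The 11 calls for ST against SS were 10 to 13 leaving out 1 library, and 4 with a filter of 5 FPKM, under which fewer of the features are tested. The 2 calls for the difference between responses were 0 with a pseudocount of 0.1, 1 each with no filter, a filter of 5 FPKM, median-of-ratios scaling, other libraries in the fit and the replicate block, and 1 to 3 leaving out 1 library; beyond the filter, the cause was not tested. The replicate block ended 1 call, that of zma-MIR160b (limma adjusted p = 0.0559), although salinity and water libraries of the same number did not deviate together. Of the 33 single values recomputed, the 1 that reversed was that of zma-MIR166a for the response difference (0.06 in the reported fit), which ran from -0.11 to 0.16 leaving out 1 library and was negative without SS water root replicate 2 (-0.02), ST water root replicate 2 (-0.09) or ST salinity root replicate 1 (-0.11). Of the same 33 values, 8 fell short of the threshold with a pseudocount of 0.1, 5 with no filter, 4 with voom, 4 with other libraries in the fit and 2 under median-of-ratios scaling. A tolerance of 0.02 reads left the 789 reads and the lengths unchanged. Depth limits each value, since 1 read is worth up to 0.618 FPKM.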
